A study of Mus musculus with 64 samples.

Results

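The 42 genes described here encode the enzymes that digest macromolecules inside lysosomes, the proteins of the lysosomal membrane, the proton pump that acidifies the organelle, and Tfeb, a transcription factor of lysosomal genes. They were taken by gene symbol from a table of 45708 genes. All 42 were found, and all 42 passed the filter on low counts, which kept 18413 genes. The set comprises 9 cathepsins, 16 other hydrolases and enzyme activators, 9 membrane and lipid transfer proteins, 7 genes of the proton pump and Tfeb. Microglia, brain-resident macrophages, were sorted on CD11b and CD45 from suspensions of mouse brain, and their total RNA was sequenced. Mice carried RISP genotypes labelled KO, Het or WT, where RISP is the product of Uqcrfs1, the Rieske iron-sulphur subunit of complex III in the mitochondrial respiratory chain. Treated groups received cuprizone, which chelates copper and leads to the death of oligodendrocytes and loss of myelin, or PLX3397, which blocks CSF1R, a receptor that microglia need to survive. PLX3397 mice were taken at depletion or at repopulation.

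KO libraries came from adult mice that were naive (13 libraries), on cuprizone (6), at depletion (2) or at repopulation (4). Het libraries came from adults that were naive (13), on cuprizone (4), at depletion (2) or at repopulation (4), and from old naive mice (3). WT libraries came from adults that were naive (5), at depletion (4) or at repopulation (4). The labels give no dose, day or sex, leave out how the deletion was driven, and do not tie each replicate to an animal of its own, so the p values measure the spread between these libraries only. The count table has rows for CreERT2, an inducible recombinase, and tdTomato, a red fluorescent protein, and the labels do not name the promoter of either.

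Lysosomes break down proteins, lipids, glycans and nucleic acids with hydrolases that work in acid. The vacuolar ATPase pumps protons into the organelle: its V1 sector splits ATP in the cytosol, its V0 sector carries protons across the membrane, and accessory subunits help it assemble. Microglia take up myelin, synapses and dead cells and digest them in lysosomes, and they are rich in cathepsins. Many genes for lysosomal proteins carry copies of a short E-box with the core CACGTG near their start, to which Tfeb and related factors bind, and which is called the CLEAR motif.

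The libraries fell into sets that differ in depth and in the share of counts on 2 non-coding genes, Gm26917 and Yam1, and every test below stays inside 1 set. The PLX3397 set, with shares under 1% and 9.32 to 16.27 M counts (M: 1000000) per library, holds all PLX3397 libraries and naive KO 1 to 5, Het 1 to 4 and WT 1 to 5 (34 libraries). Naive KO 6 to 11 and Het 5 to 11 (13 libraries, 6.38 to 11.69 M) form another set, the cuprizone libraries (10, 2.7 to 5.1 M) a further one, and 7 deep libraries, with the old mice among them, are described without a test. Uqcrfs1 was lower in every KO library than in the controls of its set. Among naive libraries of the PLX3397 set it ran at 5.69 to 10.2 CPM in KO libraries, at 21.3 to 39.9 CPM in Het libraries and at 36.9 to 49.6 CPM in WT libraries, and among cuprizone libraries at 0 to 1.51 CPM in KO and 12.2 to 13.4 CPM in Het (CPM: counts per M of the library total). All 8 microglial markers listed were above 0 in every library, the lowest being Siglech at 292 CPM. The labels place untreated RISP-/- and WT libraries on one sequencer model and all others on another, with a different read length on each. As labelled, the sequencer cannot be told apart from PLX3397 in KO and WT, or from genotype where naive KO is set against naive Het. Naive KO against naive WT, and genotypes on cuprizone or at the PLX3397 stages, share a sequencer. Y-linked genes marked as male 4 of 5 KO, 1 of 4 Het and 5 of 5 WT naive libraries of this set. In the order of the samples, naive KO 5, WT 5 and Het 1 to 4 stand together, apart from KO 1 to 4 and WT 1 to 4. The labels name no batch, and one that followed this order could not be fully told apart from genotype between naive KO and Het.

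The promoters below show how unevenly the E-box is spread over the set. It occurs 4 times before the start of Lamp1, which rose at depletion. It is absent from the 250 bases before the RefSeq starts used here for Cd63 and Man2b1, which also rose. Each line gives the 250 bases before the annotated start, read 5′ to 3′ on the strand of the gene from RefSeq on GRCm38.p6, with CACGTG in capitals. Lamp1 lies at chr8:13158911-13159160 on the plus strand, with E-boxes that begin at -61, -45, -28 and -15 relative to the start. Ctsd lies at chr7:142387828-142388077 on the minus strand (-245 and -98) and Mcoln1 at chr8:3500269-3500518 on the plus strand (-71 and -45). Cd63 lies at chr10:128909095-128909344 on the plus strand and Man2b1 at chr8:85083019-85083268 on the plus strand. The stretch shown for Cd63 falls inside the gene as annotated by GENCODE M21 (chr10:128900989-128912822). The 5′ end of that longer span was not searched.
Lamp1: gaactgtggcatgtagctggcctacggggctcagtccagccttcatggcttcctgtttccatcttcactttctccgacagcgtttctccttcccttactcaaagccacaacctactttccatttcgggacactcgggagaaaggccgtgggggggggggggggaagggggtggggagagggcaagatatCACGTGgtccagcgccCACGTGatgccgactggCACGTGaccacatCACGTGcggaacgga
Ctsd: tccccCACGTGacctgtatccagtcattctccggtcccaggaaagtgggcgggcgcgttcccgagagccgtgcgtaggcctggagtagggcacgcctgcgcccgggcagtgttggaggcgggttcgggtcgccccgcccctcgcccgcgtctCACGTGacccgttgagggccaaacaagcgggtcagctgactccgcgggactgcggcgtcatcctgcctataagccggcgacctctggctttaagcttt
Mcoln1: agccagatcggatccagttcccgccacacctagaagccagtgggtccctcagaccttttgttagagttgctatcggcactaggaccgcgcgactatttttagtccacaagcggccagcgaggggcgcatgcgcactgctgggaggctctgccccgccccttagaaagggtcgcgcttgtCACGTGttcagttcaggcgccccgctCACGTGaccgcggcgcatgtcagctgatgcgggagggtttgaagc
Cd63: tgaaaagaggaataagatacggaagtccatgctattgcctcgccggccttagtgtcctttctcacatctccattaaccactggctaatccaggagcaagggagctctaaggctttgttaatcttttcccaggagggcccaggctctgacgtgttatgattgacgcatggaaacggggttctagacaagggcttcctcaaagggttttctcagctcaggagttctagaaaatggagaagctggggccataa
Man2b1: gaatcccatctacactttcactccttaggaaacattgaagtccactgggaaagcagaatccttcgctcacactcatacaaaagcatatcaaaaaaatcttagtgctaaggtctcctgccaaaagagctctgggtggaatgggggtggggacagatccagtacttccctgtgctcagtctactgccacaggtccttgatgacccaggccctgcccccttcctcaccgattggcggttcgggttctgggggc

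Both strands of 300 bases per promoter (250 before the start and 50 after it) were searched for 3 motifs. CACGTG was present in 13 of the 36 member genes with a promoter in the table (36.1%), and in 8.09% of all 27025 genes. Its extension TCACGTG, which overlaps it, was present in 11 members (30.6%) and 4.29% of all genes, and GGGCGG, the core of the GC box, in 25 members (69.4%) and 38.2% of all genes. The 13 genes were Atp6v0d1, Atp6v1a, Ctsa, Ctsd, Ctsf, Ctsl, Gaa, Gla, Glb1, Lamp1, Lgmn, Mcoln1 and Naglu. In controls at depletion 11 of these 13 rose and 0 fell (median log2 fold change 0.54). Of the 23 members without the motif 17 rose and 1 fell (median 0.39), where 7.36% of all genes were called higher and 6.89% lower. The difference between the 2 groups of members was not tested. A match is a description of these letters, not a bound site. The promoters of Ctsb, Ctsh, Npc1, Asah1, Atp6v1b2 and Atp6v1h were not analysed here.

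**Figure D1:**
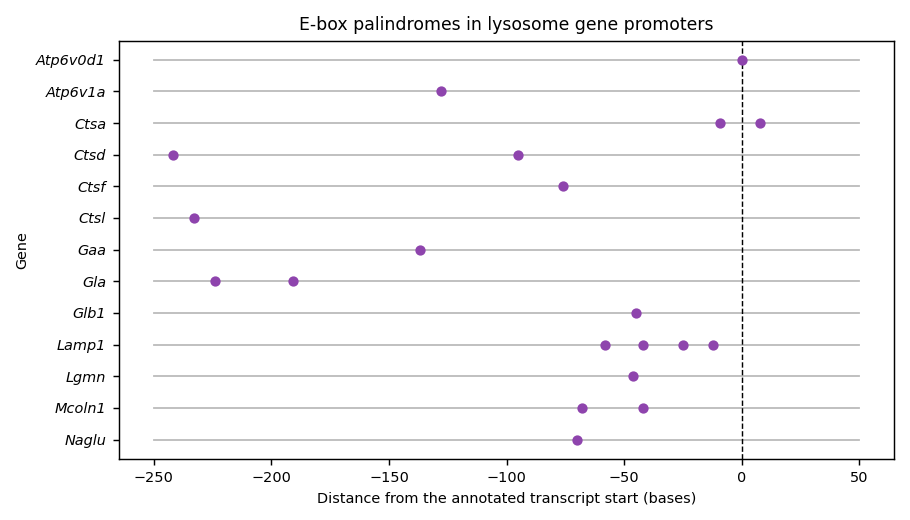
Position of each CACGTG (centre of the motif, bases from the annotated start) in the promoters of the 13 member genes that hold one. Lamp1 holds 4 copies, and Ctsd, Mcoln1 and Gla hold 2 before the start.

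Levels within the set spanned a wide range in untreated WT microglia. Per kilobase of exon, the most abundant member was Ctsd, an aspartic protease, at 5794 ± 233 CPM per kb (SD, n = 5), followed by Ctss, a cysteine protease that works on antigens, at 4238 ± 345 CPM per kb, and Lgmn, an asparaginyl endopeptidase that processes cathepsins, at 2911 ± 234 CPM per kb. Psap, the precursor of the saposins that activate sphingolipid hydrolases, came next at 2368 ± 131 CPM per kb and Laptm5, a lysosomal membrane protein of blood cells, at 1599 ± 145 CPM per kb. These 5 were separated by more than their spreads. Gla (alpha-galactosidase A) at 2.84 ± 0.294 CPM per kb, Mcoln1 (the calcium channel TRPML1) at 4.25 ± 0.603 CPM per kb and Atp6v1h (a V1 subunit) at 5.08 ± 0.502 CPM per kb were lowest. Together the 42 genes took a median of 6.91% of all counts in KO, 5.87% in Het and 6.30% in WT naive libraries of the PLX3397 set, 8.49% in KO, 8.56% in Het and 8.19% in WT at depletion, and 7.49% in KO, 7.49% in Het and 7.35% in WT at repopulation.

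At depletion the microglia that were recovered carried more lysosomal transcript than naive microglia, and in each of the 4 larger roles more members rose than fell. In controls (the mean of the Het and WT groups, 6 libraries at depletion and 9 naive) 32 of the 42 members rose and 1 fell. Of all genes, 7.36% were called higher and 6.89% lower (14.2% in either direction). The median log2 fold change of members was 0.44, against -0.008 over all genes. Calls throughout are from edgeR's quasi-likelihood test with Benjamini-Hochberg adjustment over 18413 genes at 0.05, and errors of fold changes are standard errors. In KO microglia (2 libraries at depletion and 5 naive) 17 members rose and none fell at a background of 2.28% higher and 2.02% lower (4.3% in either direction). At an unadjusted p under 0.05, 27 members were higher and 1 lower, and the share of all genes at that level was not counted. DESeq2 called 23 higher and 1 lower, and 9.05% of all genes in either direction. The median was 0.31, against -0.014 over all genes. In bulk RNA, fewer cells of a type and less RNA per cell cannot be told apart. By role, controls showed a rise in 8 of 9 cathepsins (median 0.76), 12 of 16 other hydrolases and activators (0.44), 7 of 9 membrane and lipid transfer proteins (0.56) and 5 of 7 pump genes (0.24, with 1 that fell). The KO counts for the same roles were 6 of 9 (0.42), 6 of 16 (0.32), 4 of 9 (0.32) and 1 of 7 (0.17).

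At repopulation part of this rise was still present. In controls (8 against 9 naive libraries) 26 members rose and 1 fell, at a background of 8.06% higher and 7.38% lower (15.4%), with a member median of 0.35 against 0 over all genes. In KO (4 against 5) 15 rose and 1 fell, at 4.31% higher and 2.42% lower (6.73%), with a median of 0.20 against 0. Set directly against depletion, the repopulated controls had 14 members lower and 4 higher, at a background of 5.33% lower and 7.38% higher (12.7%), and a median of -0.16 against 0.003. The 4 higher at repopulation than at depletion were Ctsf, Ctsh, Lgmn and Naglu, of which Lgmn had no call at depletion over naive. With Het libraries alone as controls none of the 4 was called and 9 members were lower, and with WT alone 8 were lower. The depletion calls in KO rest on few libraries: 6 members were called without KO depletion replicate 2, 11 without replicate 1, and 1 when only the 7 KO libraries compared entered the fit.

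**Figure D2:**
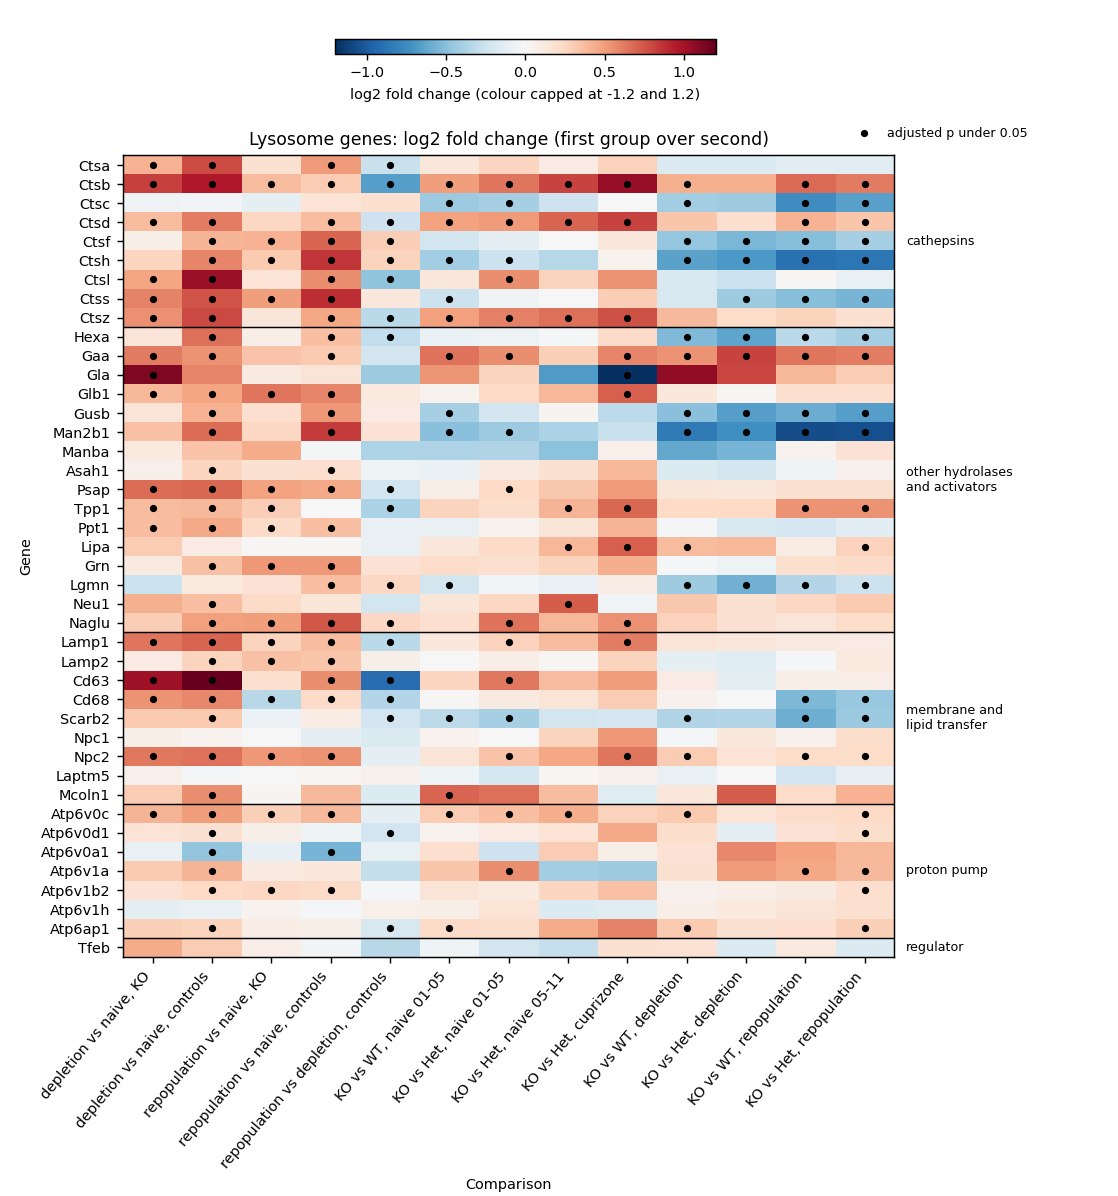
Log2 fold changes of the 42 genes (rows, by role) in 13 comparisons (columns, KO left of controls for the PLX3397 stages), with a dot where the adjusted p is under 0.05. Depletion in controls has 33 dotted genes, of which 1 is lower, and depletion in KO has 17.

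**Figure D3:**
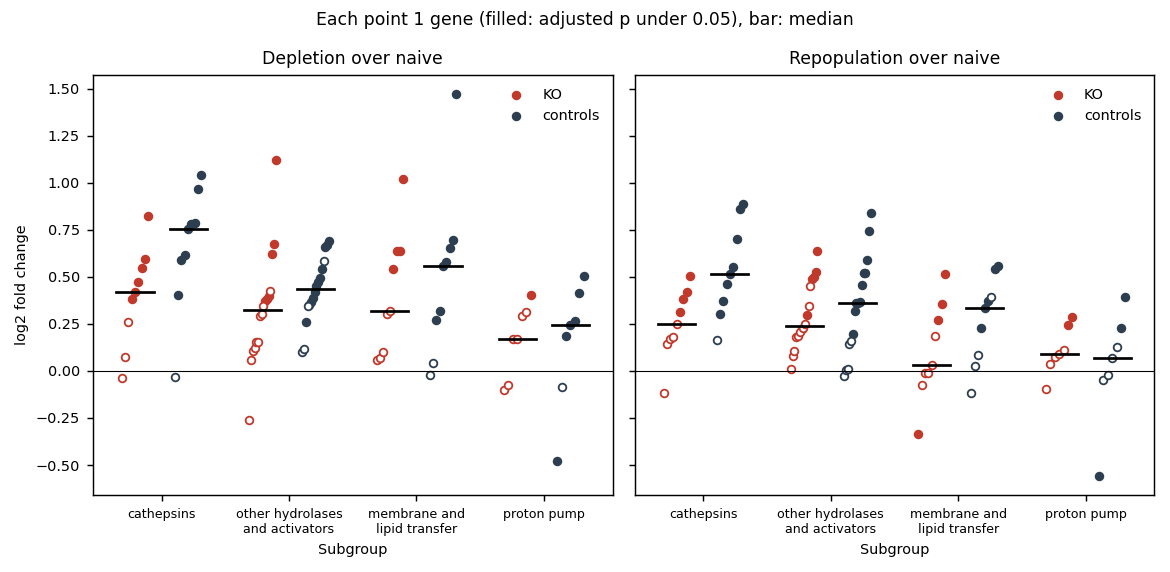
Log2 fold change over naive at depletion and at repopulation for each gene (points) by role, KO left of controls, with a bar at the median. Cathepsins at depletion have medians of 0.42 in KO and 0.76 in controls, and pump genes 0.17 in KO and 0.24 in controls.

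Among cathepsins, Ctsb (ENSMUSG00000021939, chr14:63122462-63145923 on GRCm38, as are all gene positions here), a cysteine protease with both endo- and exopeptidase activity, changed most often: it was called in 12 of the 15 tests. Its level in KO libraries was 4141, 5614, 5809, 5736 and 5893 CPM when naive, 8382 and 9797 CPM at depletion and 6574, 6376, 6659.6 and 6100.0 CPM at repopulation. Control libraries held 3397 to 4251 (median 3586) CPM when naive, 5966 to 7448 (median 6971) CPM at depletion and 3669 to 4400.4 (median 4194) CPM at repopulation. Every depletion library lay above every naive library of its genotype class, and at repopulation the controls overlapped the naive range while the KO libraries stayed above it. The log2 fold change at depletion was 0.82 ± 0.11, adjusted p = 2.74e-05 in KO and 0.96 ± 0.074, adjusted p = 1.87e-10 in controls. From depletion to repopulation controls changed by -0.66 ± 0.077, adjusted p = 2.39e-07.

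Ctsl, another endopeptidase of this family, held 992, 1037, 911, 914 and 1035 CPM when naive, 1179 and 1379 CPM at depletion and 931, 1058, 1093 and 895 CPM at repopulation in KO libraries. In controls it held 609 to 979.9 (median 713) CPM when naive, 1406 to 1553 (median 1509.6) CPM at depletion and 906 to 1159.6 (median 1041) CPM at repopulation. Depletion libraries were apart from naive ones in both genotype classes, and repopulated libraries overlapped naive ones. The depletion rise was 0.47 ± 0.11, adjusted p = 0.00871 in KO and 1.04 ± 0.071, adjusted p = 1.97e-11 in controls. The later fall in controls was -0.49 ± 0.073, adjusted p = 1.78e-05. Alternative fits, Het or WT alone as controls among them, put the control rise at 0.795 to 1.285. They gave 0.347 to 0.584 in KO, and 0.295 to 0.813 for controls at repopulation over naive. The naive median of WT alone was 947 CPM. Ctsl was not called in the test of KO against control changes at either stage. An annotated antisense gene covers 26.9% of the exon sequence of Ctsl, and whether counting used the strand is not stated.

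Ctss stayed up after depletion. KO libraries held 5325, 4845, 4957, 4149 and 4570.4 CPM when naive, 6433 and 7131 CPM at depletion and 5328, 6252, 6638 and 6279.5 CPM at repopulation. Controls held 4572 to 6184 (median 5087) CPM when naive, 7483 to 9183 (median 8125) CPM at depletion and 8190.3 to 9643 (median 9109.5) CPM at repopulation. Both PLX3397 stages lay above the naive range in KO and in controls, without overlap. At repopulation the change over naive was 0.51 ± 0.076, adjusted p = 2.26e-05 in KO and 0.89 ± 0.055, adjusted p = 2.91e-13 in controls. Ctsh (ENSMUSG00000032359, chr9:90054152-90076089), an aminopeptidase, held 620.2, 457, 456, 456 and 426 CPM when naive, 543 and 546 CPM at depletion and 528, 509, 579 and 547 CPM at repopulation in KO and 541 to 668 (median 602) CPM when naive, 774 to 978 (median 865) CPM at depletion and 943 to 1037 (median 1016) CPM at repopulation in controls. Controls at both stages were above all naive controls, whereas KO libraries overlapped their naive range, in which replicate 1 was the high one. At repopulation its change was 0.31 ± 0.078, adjusted p = 0.0108 in KO and 0.86 ± 0.057, adjusted p = 7.4e-13 in controls.

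Ctsf, a cysteine protease, was highest at repopulation: KO libraries held 333, 284, 281, 274 and 271 CPM when naive, 260.0 and 312 CPM at depletion and 336, 343, 353 and 364 CPM at repopulation. Controls held 297 to 369 (median 317) CPM when naive, 376 to 427 (median 411) CPM at depletion and 436 to 527 (median 486) CPM at repopulation. Repopulated libraries were above naive ones in both classes, and in controls they were also above depletion. The repopulation change was 0.42 ± 0.076, adjusted p = 0.000394 in KO and 0.70 ± 0.056, adjusted p = 3.6e-11 in controls. Of the others, Ctsz (an exopeptidase), Ctsa (protective protein of lysosomal glycosidases) and Ctsd rose at depletion in controls by 0.79, 0.78 and 0.61 and in KO by 0.55, 0.42 and 0.38 on the log2 scale. Ctsc, which activates serine proteases, was the cathepsin without a call at either stage, at -0.04 in KO and -0.03 in controls at depletion.

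Among the other hydrolases and activators the saposin precursor Psap rose as well. KO libraries held 6373, 6639.8, 7004, 6647 and 7301 CPM when naive, 9288 and 11154 CPM at depletion and 8230.1, 8584, 8904 and 8788 CPM at repopulation. Controls held 5632 to 6883 (median 6048) CPM when naive, 9159 to 9498 (median 9383) CPM at depletion and 7041 to 8143 (median 7629) CPM at repopulation. Both stages stood above naive in KO and in controls with no overlap, and controls at repopulation were below those at depletion. The depletion change was 0.67 ± 0.081, adjusted p = 6.03e-06 in KO and 0.69 ± 0.054, adjusted p = 2.2e-10 in controls. Glb1, beta-galactosidase, held 115, 137, 142, 120.4 and 128 CPM when naive, 155 and 165 CPM at depletion and 172, 179, 182 and 192 CPM at repopulation in KO and 102 to 132 (median 119) CPM when naive, 145 to 169 (median 149) CPM at depletion and 142 to 177 (median 157) CPM at repopulation in controls. It too was above the naive range at both stages in each class. Its repopulation change was 0.64 ± 0.075, adjusted p = 4.2e-07 in KO, the largest of any member there, and 0.59 ± 0.055, adjusted p = 1.22e-09 in controls.

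Hexa, the alpha subunit of hexosaminidase A, held 1184, 1152, 1168, 931 and 1053 CPM when naive, 1127 and 1172 CPM at depletion and 1054, 998, 1074 and 1064 CPM at repopulation in KO libraries. In controls it held 1076 to 1213 (median 1155) CPM when naive, 1555 to 2011 (median 1658) CPM at depletion and 1270.2 to 1462 (median 1346) CPM at repopulation. Controls at depletion and at repopulation were above all naive controls, while KO libraries overlapped across the 3 stages. At depletion the change was 0.15 ± 0.09, adjusted p = 0.461 in KO and 0.66 ± 0.058, adjusted p = 2.69e-09 in controls.

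Man2b1 (ENSMUSG00000005142, chr8:85083270-85098282), lysosomal alpha-mannosidase, showed the same arrangement: 1631, 1482, 1280.5, 962 and 1138 CPM when naive, 1452 and 1657 CPM at depletion and 1278, 1364, 1412 and 1516 CPM at repopulation in KO. Controls held 1687 to 1951 (median 1777) CPM when naive, 2503 to 2956 (median 2749) CPM at depletion and 2516 to 3132 (median 2929.8) CPM at repopulation. Every control library at either stage was above every naive control, and the KO libraries of all 3 stages overlapped. The repopulation change was 0.25 ± 0.095, adjusted p = 0.126 in KO and 0.84 ± 0.069, adjusted p = 8.26e-11 in controls.

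Naglu, which removes N-acetylglucosamine from heparan sulphate, held 309, 351, 328, 380.1 and 308 CPM when naive, 372 and 402 CPM at depletion and 399.9, 452, 439 and 425 CPM at repopulation in KO and 193 to 320.0 (median 233) CPM when naive, 274 to 354 (median 336) CPM at depletion and 341 to 434 (median 374) CPM at repopulation in controls. Repopulated libraries were above naive ones in both classes, with changes of 0.50 ± 0.096, adjusted p = 0.000751 in KO and 0.75 ± 0.07, adjusted p = 1.32e-09 in controls. Grn encodes progranulin, a secreted protein that is cut to granulins in lysosomes. It held 2543, 3248, 3283, 2839 and 3437 CPM when naive, 3016 and 3243 CPM at depletion and 4042, 3959, 4052 and 3972 CPM at repopulation in KO and 2506 to 2823 (median 2649.9) CPM when naive, 3097 to 3432 (median 3193) CPM at depletion and 3094 to 3823 (median 3484) CPM at repopulation in controls. Its repopulation change was 0.52 ± 0.082, adjusted p = 4.57e-05 in KO and 0.52 ± 0.06, adjusted p = 9.18e-08 in controls, again with no overlap with naive libraries.

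Tpp1, tripeptidyl peptidase 1, held 432, 517, 601, 549 and 617 CPM when naive, 633 and 709 CPM at depletion and 610.2, 626, 582 and 610.1 CPM at repopulation in KO and 423 to 498 (median 458) CPM when naive, 525 to 609.8 (median 571) CPM at depletion and 401 to 469 (median 413) CPM at repopulation in controls. Controls were above naive at depletion, and at repopulation they overlapped the naive range with a median below its lowest library, with a change of -0.38 ± 0.071, adjusted p = 0.000329 between the stages. Gla, at low counts, was called higher at depletion in KO, by 1.12 ± 0.33, adjusted p = 0.0495, and its change in controls was 0.58 ± 0.23, adjusted p = 0.0856. The call in KO was kept in 4 of 15 alternatives.

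The membrane proteins included the member with the largest change in controls, Cd63, a tetraspanin of late endosomes and lysosomes. It lies at chr10:128900989-128912822 (ENSMUSG00000025351). KO libraries held 356, 389, 418, 376 and 377 CPM when naive, 629.7 and 834 CPM at depletion and 455, 399, 378 and 349.5 CPM at repopulation. Controls held 227 to 349 (median 260.1) CPM when naive, 591 to 825 (median 734) CPM at depletion and 321 to 417 (median 381) CPM at repopulation. Depletion libraries were well apart from naive ones, and at repopulation both classes overlapped their naive range. The depletion change was 1.02 ± 0.13, adjusted p = 1.18e-05 in KO and 1.47 ± 0.086, adjusted p = 1.5e-12 in controls. From depletion to repopulation controls changed by -0.92 ± 0.088, adjusted p = 1.56e-08. Alternative fits, Het or WT alone as controls among them, put the depletion change in controls at 1.177 to 1.768. In KO they gave 0.794 to 1.21. The naive median of WT alone was 343 CPM, near the top of the control range. Cd63 was not called in the test of KO against control changes at depletion.

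Lamp1, a heavily glycosylated protein that lines the lysosomal membrane and whose promoter holds 4 E-boxes, had 1207, 1309.9, 1321, 1235 and 1149 CPM when naive, 1661 and 1992 CPM at depletion and 1404, 1308, 1360.0 and 1365 CPM at repopulation in KO. In controls it had 988 to 1224 (median 1028) CPM when naive, 1606 to 1724 (median 1661) CPM at depletion and 1235 to 1326 (median 1272) CPM at repopulation. Both classes were apart from naive at depletion, and controls at repopulation lay between the other stages. The depletion change was 0.64 ± 0.07, adjusted p = 2.4e-06 in KO and 0.70 ± 0.046, adjusted p = 1.95e-11 in controls. Lamp2, its paralogue with a part in autophagy, changed at repopulation by 0.35 ± 0.058, adjusted p = 8.19e-05 in KO and 0.34 ± 0.042, adjusted p = 4.09e-07 in controls, with levels of 945, 881, 961, 866 and 856 CPM when naive, 862 and 965 CPM at depletion and 1014, 1041, 1089 and 1028 CPM at repopulation in KO and 793 to 956 (median 881) CPM when naive, 945 to 1083 (median 991) CPM at depletion and 947 to 1118 (median 1016) CPM at repopulation in controls. The repopulated KO libraries were above every naive KO library, and the controls overlapped.

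Npc2, a soluble protein that hands cholesterol to the membrane protein Npc1, held 605, 648, 699, 704 and 699 CPM when naive, 953 and 1017 CPM at depletion and 863, 849, 884 and 884 CPM at repopulation in KO. Controls held 514 to 663 (median 539) CPM when naive, 783 to 929 (median 820.0) CPM at depletion and 686 to 786 (median 755) CPM at repopulation. Both stages were above naive in each class. The depletion change was 0.64 ± 0.083, adjusted p = 1.56e-05 in KO and 0.65 ± 0.055, adjusted p = 9.96e-10 in controls. Npc1 itself had no call in any comparison, with changes at depletion of 0.071 in KO and 0.043 in controls.

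Cd68 (macrosialin), a glycoprotein of macrophage lysosomes that is widely used as a stain for phagocytic microglia, had 641, 790.0, 632, 534 and 542 CPM when naive, 784 and 935 CPM at depletion and 485, 439, 443 and 436 CPM at repopulation in KO. In controls it had 551 to 676 (median 597) CPM when naive, 731 to 965 (median 849.7) CPM at depletion and 589.8 to 697 (median 635) CPM at repopulation. At repopulation the KO libraries were below every naive KO library, whereas the controls overlapped theirs. The change at depletion was 0.54 ± 0.12, adjusted p = 0.00632 in KO and 0.58 ± 0.079, adjusted p = 4.74e-06 in controls, and at repopulation -0.33 ± 0.099, adjusted p = 0.0358 in KO and 0.23 ± 0.071, adjusted p = 0.0272 in controls.

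In the proton pump the subunits did not move alike. Atp6v0c (ENSMUSG00000024121, chr17:24163866-24169702), the proteolipid of the proton-carrying ring, held 462, 499, 537, 593 and 563 CPM when naive, 652 and 675 CPM at depletion and 608, 612, 601 and 524 CPM at repopulation in KO and 399 to 444 (median 419) CPM when naive, 512 to 601 (median 555) CPM at depletion and 477 to 531 (median 499.7) CPM at repopulation in controls. Depletion libraries were above naive in both classes, by 0.40 ± 0.086, adjusted p = 0.00445 in KO and 0.50 ± 0.057, adjusted p = 2.07e-07 in controls. Atp6v0d1, which links the ring to the stalk, held 106, 103, 108, 106 and 104 CPM when naive, 116 and 108 CPM at depletion and 91.5, 107, 103 and 99.9 CPM at repopulation in KO and 94.6 to 109 (median 100.1) CPM when naive, 91.2 to 129 (median 102) CPM at depletion and 82.7 to 94.2 (median 89.1) CPM at repopulation in controls. Control libraries at depletion overlapped naive ones, and all 8 at repopulation were below them in CPM, which are per library total, whereas fold changes are scaled by TMM. Its change in controls was 0.19 ± 0.045, adjusted p = 0.00414 at depletion and -0.048 ± 0.04, adjusted p = 0.485 at repopulation, and between the stages -0.23 ± 0.046, adjusted p = 0.000604. Atp6v0a1, an a subunit abundant in neurons, fell in controls, changing by -0.48 ± 0.14, adjusted p = 0.0215 at depletion and -0.56 ± 0.13, adjusted p = 0.00161 at repopulation, with ranges that overlapped naive libraries each time. The fall rests on the Het libraries: at depletion Atp6v0a1 changed by -0.91, adjusted p = 0.00834 with Het alone as controls and by -0.044, adjusted p = 0.95 with WT alone, and at repopulation by -0.74 with Het alone and by -0.38, adjusted p = 0.244 with WT alone. The same holds for the depletion change of Atp6v0d1, at 0.37 with Het alone and 0.001 with WT alone, and for its change between the stages, at -0.41 with Het alone and -0.057 with WT alone. The V1 subunits Atp6v1a (catalytic) and Atp6v1b2 (nucleotide-binding) and the accessory subunit Atp6ap1 rose in controls at depletion by 0.41, 0.24 and 0.27.

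**Figure D4:**
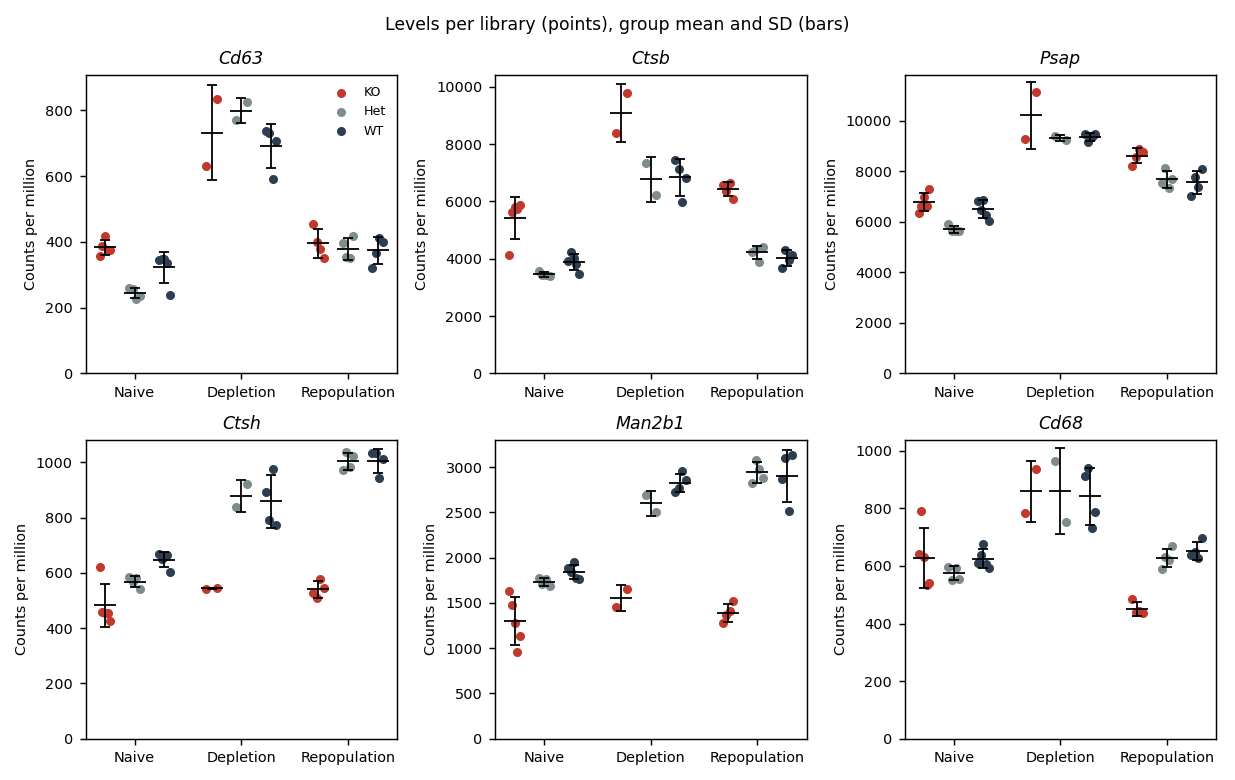
CPM of 6 member genes in each library of the PLX3397 set, by stage (naive, depletion, repopulation) and genotype (KO, Het, WT), with mean and SD. Cd63 and Ctsb peak at depletion, while Ctsh and Man2b1 in KO libraries at repopulation (509 to 579 CPM and 1278 to 1516 CPM) lie below all Het and WT libraries of that stage.

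Genes of the same pathway outside the set were read beside it. Of all genes, 7.36% were called higher and 6.89% lower in controls at depletion, and 8.06% and 7.38% at repopulation. In KO the shares were 2.28% and 2.02% at depletion and 4.31% and 2.42% at repopulation. Of 29 other lysosomal hydrolases, 18 rose and 2 fell in controls at depletion (median 0.25), and 14 rose at repopulation with none lower (median 0.25). In KO 6 rose and 1 fell at depletion, and 7 rose and 1 fell at repopulation. Of 11 further pump subunits, 8 rose and 1 fell in controls at depletion (median 0.34) and 3 rose in KO. Of 15 sorting and transport genes, 4 rose and 1 fell in controls at depletion, and of 14 regulators 3 rose and 2 fell. All 3 inhibitors of cysteine cathepsins rose in controls at depletion, among them Cst7 (cystatin F) by 2.04 ± 0.21, adjusted p = 5.81e-08 and Cst3 (cystatin C) by 0.48 ± 0.089, adjusted p = 0.000291. In KO 1 of the 3 rose, Cstb by 0.60 ± 0.15, adjusted p = 0.0175.

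Markers of another brain macrophage moved at the same stages. The summed level of 7 markers of border-associated macrophages was 192 to 618 CPM in naive KO, 58.1 to 116 CPM in KO at depletion and 32.1 to 82.9 CPM in KO at repopulation, and 587 to 1459 CPM, 64.8 to 199 CPM and 27.7 to 78.6 CPM at the same stages in controls. In controls 7 of 7 were called lower at each stage, and in KO 5 of 7 at depletion and 7 of 7 at repopulation. Mrc1, one of the defining markers, was never under 15.3 CPM, and Cbr2 was at 0 in 1 of 64 libraries. Of 5 endothelial markers 4 were called lower in controls at each stage. In KO depletion replicate 2 the summed monocyte markers were at 58.1 CPM and the neutrophil markers at 55.8 CPM, against 9.11 CPM and 0 in replicate 1. The part of any of these in the lysosomal results was not tested.

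Whether KO microglia responded to PLX3397 as controls did was tested as the difference between their fold changes. For depletion no member was called, at a background of 0.0109% of genes, 0.00543% higher and 0.00543% lower. By the unadjusted p, 9 members were under 0.05, all of them lower in KO, and the share of all genes at that level was not counted. DESeq2 called 3 members, all lower, and 0.495% of all genes. All 9 cathepsins had a negative difference, with a median of -0.24 against -0.01 over all genes. For repopulation 3 members were called, all lower, at a background of 0.326% lower and 0.217% higher (0.543%). They were Man2b1 (-0.59 ± 0.12, adjusted p = 0.0113), Cd68 (-0.56 ± 0.12, adjusted p = 0.0209) and Ctsh (-0.55 ± 0.097, adjusted p = 0.00402). DESeq2 called 6 members, and 2.28% of all genes, and a fit over all 64 libraries called no member, and 0.0923% of all genes. Without KO naive replicate 4 the count was 5.

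Genotype differences were read within each condition, KO against Het in 5 groups of libraries that share none, and KO against WT in 3. In 7 of the 8 comparisons members were called in both directions, and in the other naive set all calls were higher. Among naive libraries of the PLX3397 set KO stood above WT in 7 members and below in 7, at a background of 2.01% higher and 2.03% lower (4.04%), with a member median of 0.10 against 0 over all genes. Against Het of that set 12 were higher and 4 lower, at 3.33% and 3.2% (6.53%), with a median of 0.17 against 0.008. In the other naive set KO exceeded Het in 7 members, with none lower, at 1.62% higher and 2.55% lower (4.17%), and the median was 0.22 against -0.012. At an unadjusted p under 0.05, 17 were higher and 5 lower there, and the share of all genes at that level was not counted. DESeq2 called 12 higher and 3 lower, and 9.54% of all genes in either direction. Without Het replicate 9 the count was 14. On cuprizone 10 were higher and 1 lower, at 1.72% and 3.17% (4.89%), and the median was 0.30 against 0. There 4 were higher and 1 lower with the replicate number as a block, 16 and 1 with DESeq2, and 23 and 1 in 1 fit over all 64 libraries.

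At depletion KO differed from WT in 6 higher and 8 lower members, at 2.45% and 2.01% (4.46%), and from Het in 1 higher and 7 lower, at 1.24% and 1.27% (2.51%). The medians were 0.091 and 0.006. At repopulation KO differed from WT in 6 higher and 10 lower members, at 5.29% and 4.94% (10.2%), and from Het in 11 higher and 10 lower, at 5.06% and 4.95% (10%). The medians were 0.11 and 0.19. The 11 higher members against Het became 6 with sex as a covariate (3 of 4 KO and 1 of 4 Het libraries at repopulation were male by Y-linked genes), 5 with only the libraries compared, 5 without the filter on low counts and 3 in 1 fit over all 64 libraries, while the lower ones were 10, 10, 10 and 7. The naive comparison with WT depends on KO replicate 1, which lay inside the WT range in 9 of the 14 called members, while KO replicates 2 to 5 were outside it in all 14. With only the 10 libraries compared in the fit no member was called, and with replicate 1 also left out 16 were (an alternative added after the data were seen).

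Ctsb and Gaa were each called higher in KO in 7 of the 8 genotype comparisons. Naive libraries of the PLX3397 set held 4141, 5614, 5809, 5736 and 5893 CPM in KO, 3586, 3421, 3424 and 3397 CPM in Het and 3909, 4251, 4027, 3801 and 3473 CPM in WT libraries. In the other naive set it ran at 2257 to 3014 (median 2581) CPM in KO libraries and 1384 to 2105 (median 1531) CPM in Het libraries, and on cuprizone at 2557 to 3819.8 (median 2852) CPM in KO libraries and 1685, 1321, 1624 and 1595 CPM in Het libraries. KO replicate 1 fell inside the WT range. All other KO libraries were above all controls of their own set and stage, and KO was apart from Het in all 5 groups. The difference was 0.50 ± 0.088, adjusted p = 0.000512 against naive WT and 0.64 ± 0.094, adjusted p = 3.09e-05 against naive Het. Against Het it was 0.81 ± 0.13, adjusted p = 0.00152 in the other naive set and 1.04 ± 0.17, adjusted p = 0.00262 on cuprizone. At repopulation it held 6574, 6376, 6659.6 and 6100.0 CPM in KO, 4250.0, 4333, 3898 and 4400.4 CPM in Het and 3669, 4310.2, 3965 and 4137 CPM in WT libraries, with KO above all controls, by 0.68 ± 0.099, adjusted p = 1.96e-05 over WT and 0.63 ± 0.099, adjusted p = 5.52e-05 over Het.

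Ctsd (ENSMUSG00000007891, chr7:142375911-142388038) held 14967, 20886, 20757, 18651 and 19199 CPM in KO, 13611, 13564, 13059 and 12453 CPM in Het and 13917, 12746, 13966, 14052 and 13424 CPM in WT libraries when naive. In the other naive set it held 6110.1 to 8424 (median 6904) CPM in KO libraries and 4097 to 5967 (median 4549) CPM in Het libraries, and on cuprizone 6417 to 9343 (median 7307) CPM in KO libraries and 4499, 4803, 4537 and 4867 CPM in Het libraries. KO libraries were above all controls in each of these groups, with KO replicate 1 the nearest to them. The naive differences were 0.49 ± 0.076, adjusted p = 0.000138 over WT and 0.51 ± 0.082, adjusted p = 0.000103 over Het, and over Het 0.70 ± 0.12, adjusted p = 0.00293 in the other naive set and 0.82 ± 0.16, adjusted p = 0.0101 on cuprizone. An annotated gene on the same strand, Gm49369, shares 34.4% of the exon sequence of Ctsd, so reads there may have been split between them.

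Ctsz held 1511, 2265, 2221, 2017 and 1992 CPM in KO, 1430.3, 1294, 1242 and 1259 CPM in Het and 1478, 1428, 1514, 1414 and 1359 CPM in WT libraries when naive, 813 to 1233 (median 884) CPM in KO libraries and 532 to 907 (median 599) CPM in Het libraries in the other naive set and 948 to 1362 (median 1063) CPM in KO libraries and 640.3, 595, 733 and 789 CPM in Het libraries on cuprizone. KO and Het ranges overlapped in the other naive set, and KO replicate 1 overlapped WT. Over WT it was higher by 0.49 ± 0.11, adjusted p = 0.0042, and over Het by 0.60 ± 0.11, adjusted p = 0.000817, 0.66 ± 0.15, adjusted p = 0.0194 and 0.77 ± 0.16, adjusted p = 0.0125 in the same order of groups. Ctsl was higher only against naive Het among these tests, by 0.56 ± 0.09, adjusted p = 9.91e-05, with 992, 1037, 911, 914 and 1035 CPM in KO, 679, 713, 625 and 609 CPM in Het and 979.9, 947, 944, 966 and 655 CPM in WT libraries. WT replicate 5, which stands with KO 5 and Het 1 to 4 in the sample order, lay within the Het range, and the other 4 lay within the KO range.

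Several hydrolases rose with these proteases. Gaa (ENSMUSG00000025579, chr11:119267887-119285454), the acid alpha-glucosidase that degrades glycogen, held 247, 399.9, 369, 416 and 422 CPM in KO, 247, 244, 249 and 261 CPM in Het and 234, 229.9, 245, 241 and 249 CPM in WT libraries when naive, 489 and 590.0 CPM in KO, 341 and 274 CPM in Het and 384, 345, 394 and 380.4 CPM in WT libraries at depletion and 458, 385, 433 and 438 CPM in KO, 297, 279.8, 299 and 262 CPM in Het and 266, 302, 225 and 302 CPM in WT libraries at repopulation. Apart from KO naive replicate 1, which matched the controls, all KO libraries of these 3 stages were above all Het and WT libraries of their stage. The difference from WT was 0.65 ± 0.11, adjusted p = 0.000373 when naive, 0.54 ± 0.15, adjusted p = 0.0291 at depletion and 0.65 ± 0.12, adjusted p = 0.000589 at repopulation. Over Het it was 0.81 ± 0.18, adjusted p = 0.00893 at depletion and 0.59 ± 0.13, adjusted p = 0.0197 on cuprizone, where it held 157 to 222 (median 199) CPM in KO libraries and 138, 139, 133 and 135 CPM in Het libraries.

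Tpp1 ran at 274 to 324 (median 291) CPM in KO libraries and 231 to 260.0 (median 249) CPM in Het libraries in the other naive set, at 289 to 401 (median 305) CPM in KO libraries and 218, 188, 233 and 205 CPM in Het libraries on cuprizone and at 610.2, 626, 582 and 610.1 CPM in KO, 469, 430.0, 401 and 403 CPM in Het and 410.1, 406, 416 and 441 CPM in WT libraries at repopulation. None of these ranges overlapped, and KO exceeded Het by 0.40 ± 0.075, adjusted p = 0.00525, 0.69 ± 0.14, adjusted p = 0.0136 and 0.54 ± 0.091, adjusted p = 0.000154 in that order. Lipa, the acid lipase for cholesteryl esters and triglycerides, ran at 100.0 to 133 (median 113) CPM in KO libraries and 82.1 to 111 (median 96.7) CPM in Het libraries in the other naive set and 104 to 159 (median 127) CPM in KO libraries and 100.3, 73.5, 75.5 and 83.1 CPM in Het libraries on cuprizone. The ranges overlapped in the naive set and were apart on cuprizone. KO exceeded Het by 0.40 ± 0.11, adjusted p = 0.0465 and 0.72 ± 0.15, adjusted p = 0.015. At depletion Lipa held 319 and 342 CPM in KO, 261 and 243 CPM in Het and 246, 252, 261 and 269.7 CPM in WT libraries, with KO above both control groups and a difference from WT of 0.38 ± 0.10, adjusted p = 0.0224.

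Glb1 on cuprizone ran at 47.2 to 67.2 (median 53.7) CPM in KO libraries and 38.5, 30.1, 36.9 and 36.0 CPM in Het libraries, with no overlap, a difference of 0.71 ± 0.16, adjusted p = 0.0197. Naglu in naive libraries of the PLX3397 set held 309, 351, 328, 380.1 and 308 CPM in KO, 233, 218, 202 and 193 CPM in Het and 317, 305, 320.0, 293 and 233 CPM in WT libraries. KO libraries were above all Het libraries and overlapped WT. WT replicate 5, at 233 CPM, was the lowest WT library and level with Het replicate 1. The difference from Het was 0.65 ± 0.097, adjusted p = 4.15e-05 and from WT 0.21 ± 0.091, adjusted p = 0.245. Neu1, the lysosomal sialidase, was called in 1 genotype comparison, the other naive set, at 45.3 to 83.7 (median 55.6) CPM in KO libraries and 26.2 to 53.1 (median 41.99) CPM in Het libraries, with overlapping ranges and a difference of 0.73 ± 0.20, adjusted p = 0.0494.

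Npc2 on cuprizone ran at 212 to 324 (median 265) CPM in KO libraries and 168, 163, 187 and 198 CPM in Het libraries and in naive libraries of the PLX3397 set at 605, 648, 699, 704 and 699 CPM in KO, 537, 514, 516 and 529 CPM in Het and 594, 663, 657, 591 and 539 CPM in WT libraries. KO was above Het without overlap in both, by 0.64 ± 0.15, adjusted p = 0.0246 and 0.34 ± 0.069, adjusted p = 0.00155. Cd63 in naive libraries held 356, 389, 418, 376 and 377 CPM in KO, 260.1, 256, 227 and 234 CPM in Het and 343, 349, 348, 337 and 239 CPM in WT libraries, with every KO library above every control. Its difference was 0.63 ± 0.11, adjusted p = 0.000266 from Het and 0.26 ± 0.10, adjusted p = 0.172 from WT, where WT replicate 5 was low and within the Het range. Atp6v0c held 462, 499, 537, 593 and 563 CPM in KO, 416, 419, 399 and 399.5 CPM in Het and 443, 424, 444, 442 and 417 CPM in WT libraries when naive, again with every KO library above every control, and exceeded Het by 0.36 ± 0.071, adjusted p = 0.0011 and WT by 0.31 ± 0.066, adjusted p = 0.00432. In the other naive set Atp6v0c ran at 180.0 to 258 (median 201) CPM in KO libraries and 157 to 200.4 (median 169.6) CPM in Het libraries, with overlap and a difference of 0.44 ± 0.099, adjusted p = 0.0189. At repopulation 5 of the 7 pump genes were higher in KO than in Het, at a background of 5.06%, and all 7 had positive differences (median 0.24). These calls depend on the fit: of 15 alternatives Atp6ap1 kept its call in 12, Atp6v0d1 in 9, Atp6v1b2 in 7, Atp6v0c in 5 and Atp6v1a in 4, and none of the 5 was called with only the libraries compared or in 1 fit over all 64.

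On cuprizone Ctsb, Ctsd and Ctsz had their largest genotype differences, and 1 member fell. Gla held 5.24 to 34.1 (median 7.89) CPM in KO libraries and 102, 46.7, 47.0 and 31.3 CPM in Het libraries. KO replicate 2, at 34.1 CPM, lay above Het replicate 4, and the other KO libraries were below all Het libraries. The difference was -2.07 ± 0.48, adjusted p = 0.0248. The cuprizone libraries also differ in the share of Gm26917 and Yam1, at 3.62% or more in KO 1 to 4 and Het 1 and 2 and at 2.49% or less in KO 5 and 6 and Het 3 and 4. In both divisions all 11 called members kept their sign, and the 10 higher ones differed by 0.71 to 1.34 log2 units in the first and 0.35 to 0.79 in the second. Without Het cuprizone replicate 1, 2 or 3 the count of 11 was 5, 7 or 6, and without KO replicate 1 it was 7.

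Against WT at repopulation 10 members were lower in KO: the proteases Ctsc, Ctsf, Ctsh, Ctss and Lgmn, the glycosidases Man2b1, Gusb and Hexa, and the membrane proteins Cd68 and Scarb2. Man2b1 and Ctsh had the largest differences there. Man2b1 held 1631, 1482, 1280.5, 962 and 1138 CPM in KO, 1777, 1710.3, 1763 and 1687 CPM in Het and 1889.9, 1842, 1951, 1777 and 1765 CPM in WT libraries when naive, 1452 and 1657 CPM in KO, 2695 and 2503 CPM in Het and 2727, 2771, 2956 and 2857 CPM in WT libraries at depletion and 1278, 1364, 1412 and 1516 CPM in KO, 2827, 3076, 2982 and 2878 CPM in Het and 2866, 3103, 2516 and 3132 CPM in WT libraries at repopulation. No KO library reached any control of its stage. The difference from WT was -0.50 ± 0.09, adjusted p = 0.000666 when naive, -0.85 ± 0.13, adjusted p = 5.38e-05 at depletion and -1.06 ± 0.10, adjusted p = 2.45e-08 at repopulation. From Het it was -0.44 ± 0.095, adjusted p = 0.00335, -0.74 ± 0.14, adjusted p = 0.00373 and -1.06 ± 0.10, adjusted p = 3.3e-08 at these stages.

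Ctsh held 620.2, 457, 456, 456 and 426 CPM in KO, 585, 568, 581 and 541 CPM in Het and 668, 649, 656, 666 and 602 CPM in WT libraries when naive, 543 and 546 CPM in KO, 838 and 920.3 CPM in Het and 893, 789.9, 978 and 774 CPM in WT libraries at depletion and 528, 509, 579 and 547 CPM in KO, 971, 1037, 984 and 1022 CPM in Het and 1035, 1035, 943 and 1011 CPM in WT libraries at repopulation. When naive, KO replicate 1 lay among the controls and the other 4 below them, and at the PLX3397 stages all KO libraries were below all controls. The difference from WT was -0.42 ± 0.074, adjusted p = 0.000534 when naive, -0.64 ± 0.10, adjusted p = 0.000127 at depletion and -0.90 ± 0.083, adjusted p = 1.63e-08 at repopulation. In the other naive set it ran at 203 to 255 (median 225) CPM in KO libraries and 273 to 354 (median 326) CPM in Het libraries without overlap, and the difference of -0.34 ± 0.10, adjusted p = 0.0818 missed the threshold.

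Ctsc held 653, 483, 538, 453 and 596 CPM in KO, 779, 673, 697 and 682 CPM in Het and 698, 834, 739, 713 and 726 CPM in WT libraries when naive and 388, 485, 521 and 425 CPM in KO, 693, 723, 705 and 773 CPM in Het and 768, 751, 699.6 and 818 CPM in WT libraries at repopulation, with KO below all controls each time. The difference from WT was -0.43 ± 0.086, adjusted p = 0.00175 when naive and -0.74 ± 0.097, adjusted p = 3.85e-06 at repopulation, where that from Het was -0.65 ± 0.096, adjusted p = 2.71e-05. Gusb, beta-glucuronidase and a common reference gene in PCR assays, held 386, 319.5, 301, 276 and 258 CPM in KO, 352, 378, 349 and 337 CPM in Het and 432, 427, 442, 417 and 330.4 CPM in WT libraries when naive and 322, 318, 329 and 314 CPM in KO, 501, 508, 519 and 526 CPM in Het and 462, 504, 468 and 497 CPM in WT libraries at repopulation. It overlapped when naive and was apart at repopulation. KO differed from WT by -0.40 ± 0.078, adjusted p = 0.00146 when naive, -0.50 ± 0.11, adjusted p = 0.00449 at depletion and -0.59 ± 0.088, adjusted p = 2.29e-05 at repopulation, and from Het by -0.66 ± 0.088, adjusted p = 6.17e-06 at repopulation.

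Hexa at depletion held 1127 and 1172 CPM in KO, 2011 and 1555 CPM in Het and 1828, 1739.7, 1561 and 1576 CPM in WT libraries, and Lgmn 4577 and 4520.1 CPM in KO, 6607 and 6983 CPM in Het and 6180.2, 6097, 6288 and 6164 CPM in WT libraries. For both genes the KO libraries were below all controls. The difference from WT was -0.53 ± 0.096, adjusted p = 0.000642 for Hexa and -0.43 ± 0.088, adjusted p = 0.00286 for Lgmn, and from Het -0.63 ± 0.11, adjusted p = 0.00153 for Hexa and -0.57 ± 0.10, adjusted p = 0.00157 for Lgmn. Without Het depletion replicate 1 the Hexa difference from Het was -0.41 and was not called. Ctsf at depletion held 260.0 and 312 CPM in KO, 427 and 414 CPM in Het and 376, 385, 426 and 408 CPM in WT libraries and at repopulation 336, 343, 353 and 364 CPM in KO, 446, 486, 436 and 497 CPM in Het and 485, 449, 526 and 527 CPM in WT libraries. Its difference from WT was -0.46 ± 0.10, adjusted p = 0.00474 at depletion and -0.51 ± 0.081, adjusted p = 5.6e-05 at repopulation.

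Ctss at repopulation held 5328, 6252, 6638 and 6279.5 CPM in KO, 8638, 9119.8, 9099 and 9643 CPM in Het and 8229, 9224, 8190.3 and 9226 CPM in WT libraries. All 4 KO libraries were below all controls, by -0.51 ± 0.08, adjusted p = 5.08e-05 against WT and -0.55 ± 0.08, adjusted p = 1.92e-05 against Het. Scarb2 (LIMP-2), the receptor that carries glucocerebrosidase to lysosomes, held 610.4, 527, 538, 469 and 466 CPM in KO, 687, 679, 665 and 683 CPM in Het and 653, 604, 645, 686 and 677 CPM in WT libraries when naive and 407, 476, 456 and 455 CPM in KO, 698, 624, 581 and 578 CPM in Het and 669.9, 669, 668 and 676 CPM in WT libraries at repopulation. In naive libraries KO replicate 1 overlapped WT, and at repopulation the groups were apart. The difference from WT was -0.31 ± 0.076, adjusted p = 0.0119 when naive and -0.58 ± 0.085, adjusted p = 1.96e-05 at repopulation, and from Het -0.45 ± 0.085, adjusted p = 0.000586 at repopulation. In the other naive set and on cuprizone Scarb2 was below Het in every KO library, at 409.6 to 471 (median 421) CPM in KO libraries and 482 to 639.5 (median 581) CPM in Het libraries and at 355 to 470.4 (median 419) CPM in KO libraries and 517, 531, 482 and 496 CPM in Het libraries, and neither difference was called (-0.22 and -0.20).

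The depletion counts rest on 2 KO libraries. Against WT, 14 members were called with all libraries of the set in the fit, 3 without KO replicate 1, 5 without KO replicate 2, 9 without WT replicate 2 and 8 without WT replicate 4. Against Het, 8 were called, 4 without KO replicate 1 and 5 without Het replicate 1, and none with only the 4 libraries compared. At depletion the summed level of 8 microglial markers was 33539 to 34133 CPM in KO and 43224 to 47373 CPM in controls, and 4 of the 8 were called lower in KO than in WT. At repopulation it was 36894 to 39633 CPM in KO and 41937 to 47944 CPM in controls. The part of these in the lysosomal differences was not tested.

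Directions were also counted across the 5 tested groups of libraries in which KO met Het. The deep libraries, which carry no test, were left out of this count. In their CPM, not scaled for the non-coding share, KO lay above adult Het in 2 members, below in 27 and overlapped in 13. Ctsb and Ctsz, higher in KO in all 5 tested groups, were the 2 above. Atp6v1b2 and Naglu, also higher in all 5, lay below there, at 0.784 and 0.909 times the Het mean. Of the 42 members 15 (35.7%) were higher in KO in all 5 and 2 (4.76%), Man2b1 and Scarb2, were lower in all 5, while over all genes the shares were 10.6% higher and 11.6% lower. Called higher in 3 or more of the 5 were 8 members (19%), namely Ctsb, Ctsd and Gaa in 4 each and Ctsz, Tpp1, Lipa, Npc2 and Atp6v0c, against 1.29% of all genes. Lipa, Npc2 and Atp6v0c reach 3 only with their repopulation calls, which were kept in 5, 3 and 5 of 15 alternatives. The call of Lipa in the other naive set was kept in 5 of 19. Called lower in 3 or more were Ctsh and Man2b1 (4.76%), against 1.18% of all genes. The naive call of Ctsh against Het was kept in 5 of 17 alternatives.

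**Figure D5:**
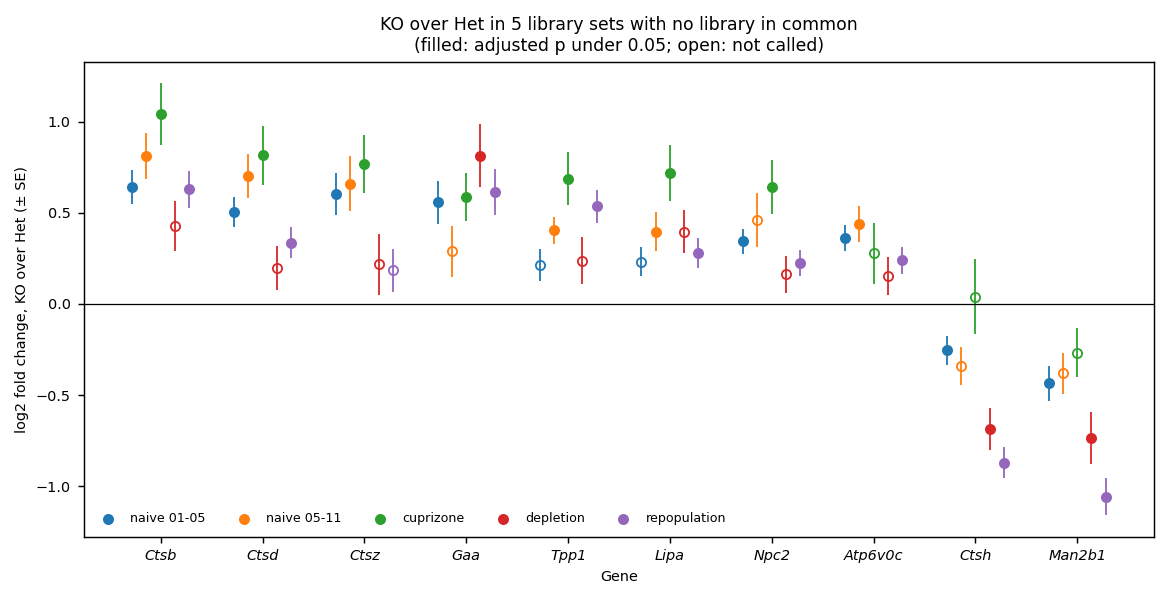
Log2 fold change of KO over Het (± SE) for 10 genes in the 5 groups of libraries (naive of the PLX3397 set, the other naive set, cuprizone, depletion, repopulation), filled where the adjusted p is under 0.05. Ctsb runs from 0.43 at depletion to 1.04 on cuprizone, and Man2b1 is below 0 in all 5.

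Related genes outside the set were read in the same comparisons. Of 29 other hydrolases 2 were higher and none lower in KO than in WT among naive libraries, where 2.01% of all genes were higher and 2.03% lower. On cuprizone 1 was higher than in Het, against 1.72% of all genes. At repopulation 4 were higher and 7 lower than in WT, against 5.29% and 4.94% of all genes. Of 11 further pump subunits 2 were higher than in naive WT, 4 than in WT at depletion and 3 than in WT at repopulation, with none lower in these 3. The shares of all genes called higher there were 2.01%, 2.45% and 5.29%. The cystatins split: Cst7 was higher in KO than in naive WT by 1.87 ± 0.26, adjusted p = 5.14e-05 and Cst3 was lower, with a difference of -0.40 ± 0.11, adjusted p = 0.022. Of the 42 members, Npc1, Manba (beta-mannosidase), Tfeb, Laptm5 and Atp6v1h were called in none of the 15 tests. Tfeb, whose product regulates many of the others, differed by -0.054 from WT and -0.22 from Het in naive KO, and changed by 0.45 in KO and 0.30 in controls at depletion. Mcoln1 was called in 2 tests: at low counts it held 50.3, 65.6, 41.0, 56.0 and 46.7 CPM in KO, 24.7, 32.2, 39.9 and 33.6 CPM in Het and 34.1, 24.0, 33.98, 34.4 and 34.1 CPM in WT libraries when naive, with all KO libraries above all controls and a difference from WT of 0.70 ± 0.21, adjusted p = 0.0476. That call against WT was kept in 6 of 19 alternatives.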

How the data were processed

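The data are RNA-seq read counts of sorted mouse microglia, 64 libraries whose genotype, treatment and age group make 12 groups. The deposited table gives the authors' raw counts per gene and library, not normalized, and all its columns were used. The submitters' processing notes name the aligner STAR 2.6.1d and the quantifier Salmon 1.5.2, beside bcl2fastq 2.20 and Trim Galore 0.6.7, with GRCm38 as the build. Which of these made the counts, and whether counting used the strand, is not given in the sources used here, and the libraries came from a stranded total RNA kit per the labels. Such counts can split reads between overlapping genes, and total RNA adds non-coding reads that lower the CPM of all other genes.

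Total counts ran from 2.7 to 24.03 M counts (median 11.89), and 12089 genes were 0 in every library. No pair of libraries was identical. Sets of libraries were defined by how much of the total fell on Gm26917 plus Yam1 (under or over 1%) and by the total itself (over 15 M, under 5.5 M, or between). Genes were kept by filterByExpr of edgeR 4.0.16 (R 4.3.3, limma 3.58.1; minimum count 10, minimum total 15). Counts were scaled by TMM and tested with glmQLFit and glmQLFTest inside each set with 1 mean per group, two-sided, with Benjamini-Hochberg adjustment over all genes and a threshold of 0.05. Controls are the mean of the Het and WT group means. CPM in the text are counts per M of the total, fold changes are TMM-scaled, and the standard error is the fold change divided by the square root of F. The fits were tested on simulated data.

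Positions and exon lengths are from GENCODE M21 on GRCm38 and promoters from RefSeq on GRCm38.p6. Given with the values of every library are up to 8 called members with the smallest p in each comparison. Alternatives were a fit over all 64 libraries, only the libraries compared, DESeq2 1.42.0 (Wald test), its size factors in edgeR, no filter on low counts, sex as a covariate, the replicate number as a block, Het or WT alone as controls, and each library left out in turn. The members and lists were chosen with earlier results of these data known. Intervals on counts were not used, since the replicates give the error. The deep and old libraries entered no test.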

Additional observations from a re-analysis of the deposited data

Results flagged for a closer look

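In groups of 4 to 10 libraries, the highest or lowest library stood apart from the rest by Dixon's test at 95% in 28 of 308 group and gene combinations, where chance gives about 1 in 20, or 15.4. Naive Het replicate 9 accounted for 7 of them, each time as the highest of the 7 Het libraries of its set: Atp6v0c at 200.4 CPM (others 157 to 173), Cd68 at 447 CPM (355 to 374), Ctsf at 162 CPM (108 to 126), Gusb at 197 CPM (152 to 166), Lamp1 at 1033 CPM (682 to 813), Lgmn at 3547 CPM (2683 to 2979) and Psap at 2884 CPM (2036 to 2258). Without this library 14 members were called between KO and Het in that set, against 7 with it.

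Naive KO replicate 6 was the highest KO library of the same set in Atp6v0c (257.7 CPM, others 180.0 to 207), Atp6v0d1 (60.9 CPM, 43.2 to 47.9), Cd63 (194.6 CPM, 103 to 124), Cd68 (486 CPM, 335 to 368) and Psap (2951 CPM, 2368 to 2533). Naive KO replicate 1 stood apart from KO 2 to 5 towards the controls in Ctsb (4141 CPM, others 5614 to 5893), Ctsf (333 CPM, 271 to 284) and Ctsh (620.2 CPM, 426 to 457). Naive WT replicate 5 was low in Cd63 (238.5 CPM, others 337 to 349), Ctsl (655 CPM, 944 to 979.9) and Gusb (330.4 CPM, 417 to 442), and naive Het replicate 1 was high in Ctsb (3586 CPM, 3397 to 3424) and Psap (5910.1 CPM, 5632 to 5660.1). In Cd63 and Ctsl this WT library lay within the range of the naive Het libraries of its set.

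On cuprizone KO replicate 3 was high in Cd63 (229.7 CPM, others 107 to 148) and Gusb (194 CPM, 137 to 149), and KO replicate 2 in Grn (1841 CPM, 1316 to 1432) and Naglu (150.2 CPM, 106 to 120.1). At repopulation KO replicate 4 was low in Atp6v0c (524 CPM, others 601 to 612), KO replicate 1 was high in Cd68 (485 CPM, 436 to 443) and low in Neu1 (73.1 CPM, 104 to 107), and Het replicate 1 was low in Ctsz (1659 CPM, 1829.7 to 1849).

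The response to repopulation differed between KO and controls in 3 members, by -0.55 for Ctsh, -0.56 for Cd68 and -0.59 for Man2b1 in log2 units. The old libraries, which entered no test, had 1.77 times the mean of adult Het in Ctsb (old Het 3437, 2318 and 4585 CPM, adult Het 2066 and 1840 CPM) and 2.80 times in Cd63 (old Het 275, 244 and 513 CPM, adult Het 122 and 124 CPM), among the deep libraries alone.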

How the results depend on the processing

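No called member changed sign under any alternative run, and 92 of 221 called results passed the threshold in all of them. Of the 4217 values, 3655 kept their call and 562 lost it. Counts of called members that moved by over 1.5 times were the following. In 1 fit over all 64 libraries depletion in KO had 6 (17 in the report), repopulation in KO 8 (16), repopulation against depletion 8 (18), KO against naive WT 7 (14), KO against Het 10 (16) in naive libraries of the PLX3397 set, 17 (7) in the other naive set and 24 (11) on cuprizone, KO against WT 1 (14) and against Het 2 (8) at depletion, KO against Het 10 (21) at repopulation, and the repopulation response 0 (3). With only the libraries compared the counts were 1 for depletion in KO, 8 for repopulation in KO, 0 for KO against naive WT (also with KO 1 to 4 against WT 1 to 4 alone), 8 for KO against naive Het, and 3 and 0 for KO against WT and Het at depletion. The added alternative without KO naive replicate 1 gave 2 for depletion and 9 for repopulation in KO. Het alone as control gave 9 for repopulation against depletion, and no filter gave 8 for KO against WT at depletion. DESeq2 called 15 in the other naive set, 17 on cuprizone, 3 for the depletion response and 6 for the repopulation response.

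The replicate number as a block gave 4 in the other naive set and 5 on cuprizone, and moved no other count by over 1.5 times. Whether the numbers pair the libraries was not settled. Outside KO and Het at depletion the correlations of same-numbered and other pairs overlapped in range. For KO and WT r ran from -0.123 to 0.21 against -0.215 to 0.177 when naive. At repopulation it ran from -0.037 to 0.137 against -0.124 to 0.103. Deviations from the group mean correlated over 0.1 in 2 of 5 same-numbered pairs (KO and WT, naive), 1 of 4 (KO and WT, repopulation) and in no pair of the other 5 comparisons. For KO and Het at depletion, with 2 libraries per group, these deviations mirror each other. Both pairs then share a single r (0.16), which cannot decide the question.

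With 1 library left out the counts ran from 30 to 34 for depletion in controls, 6 to 18 for depletion in KO, 26 to 29 and 13 to 16 for repopulation in controls and KO, 13 to 20 for repopulation against depletion, 9 to 19 for KO against naive WT (9 without KO 4, 19 without KO 1), 14 to 22 against naive Het, 5 to 14 in the other naive set, 5 to 10 on cuprizone, 3 to 14 and 4 to 6 at depletion (WT and Het), 14 to 18 and 15 to 19 at repopulation (WT and Het), 0 to 1 for the depletion response (1 without Het depletion 2 or KO naive 4) and 2 to 5 for the repopulation response. Where a group keeps 1 library, that library is assumed to vary like the other groups. Sex as a covariate, DESeq2 size factors in edgeR and, on cuprizone, the non-coding share as a term moved no total by over 1.5 times, though with sex as a covariate the members higher in KO than in Het at repopulation numbered 6 (11 in the report). The cause of these changes was not tested. The cuprizone set, at 2.7 to 5.1 M counts, is the shallowest, and differences of low genes such as Gla and Mcoln1 rest on few counts.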

Other observations

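Among the deep libraries, which carry no test, old naive Het mice (3 libraries) had more of Ctsb and Cd63 than adult Het (2 libraries). Over all members the old libraries lay above both adult Het libraries in 7, below both in 13 and overlapped in 22. How many of all genes separate in this way between 3 and 2 libraries was not counted, so these counts are not a result particular to the members. Ctsc, the dipeptidyl peptidase that activates serine proteases, held 183, 288 and 284 CPM in old Het and 428 and 433 CPM in adult Het. Ctsd held 8945, 5635 and 12882 CPM in old Het and 7549.7 and 6462 CPM in adult Het, with overlap.

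In the same set adult KO (2 libraries) lay above adult Het in 2 members, Ctsb (2172 and 2781 CPM in KO, 2066 and 1840 CPM in Het) and Ctsz, below in 27 and overlapped in 13. The share of all genes that separate in this way was not counted here either, so these counts are not a result particular to the members. CPM there are not scaled for the non-coding share, which was 7.93% and 4.20% in KO and 4.82% and 5.49% in adult Het. In old Het it ran from 5.94% to 13.6%. The summed microglial markers were 16995 to 19738 CPM in deep KO and 25985 to 29071 CPM in deep adult Het, and 11709.6 to 17331 CPM in old Het.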
